A study of Homo sapiens with 8 samples.

Results

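The genes described here encode the collagens, the laminins and a set of glycoproteins of the extracellular matrix, read in aggregates of a human neuroblastoma line exposed to medium conditioned by embryonic ganglia. A gene entered by its symbol, as a protein-coding gene named as a collagen chain or a laminin alpha, beta or gamma chain, or as FN1, TNC, SPARC, NID1, NID2, AGRN, HSPG2, FBN1, FBN2, THBS1, THBS2 or POSTN. The rule used no measured value. It found 68 genes among the 60676 rows of the count table, namely 44 collagen chains, 12 laminin chains and 12 glycoproteins. Of these, 38 passed a filter on low counts and were tested, 20 had counts that did not pass it and 10 had no count in any library.

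The cells were IGR-N91, an established line from a stage 4 neuroblastoma, cultured as aggregates in hanging drops. All 4 groups had 2 libraries each and differed by the medium. Control medium had held no tissue. Chick GS medium (E8-cSGcm) had been conditioned by sympathetic ganglia of chick embryos at embryonic day 8, chick DRG medium (E8-cDRGcm) by dorsal root ganglia of the same stage, and mouse GS medium (E15.5-mSGcm) by sympathetic ganglia of mouse embryos at stage E15.5. Only medium was transferred, all media contained fetal bovine serum, and IGR-N91 was the only line sequenced. The aggregates were collected after 20 h according to the sample labels and 24 h according to the series design. Nothing in the labels says that the 2 libraries of a group came from separate cultures, so p-values measure only the spread between these libraries, which may be technical. The mouse ganglia differed from the chick ganglia in species and in stage at the same time, and these cannot be told apart.

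Laminins and type IV collagen form the sheets of the basement membrane, and nidogens and perlecan join the sheets to each other. Fibrillar collagens build the fibres of connective tissue, and the FACIT collagens (fibril-associated collagens with interrupted helices) sit on their surface. Matricellular proteins such as tenascin-C, SPARC and the thrombospondins carry no load themselves and alter how cells adhere, and in the embryo neural crest cells migrate along matrix that holds laminin, fibronectin and tenascin.

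Total counts ranged from 7930765 to 15060744 per library, with the mouse GS libraries the shallowest at 7930765 and 8937397. The matrix genes took between 0.105% and 0.15% of a library's counts. A count of 0 allows up to 3 counts, which correspond to 0.199 to 0.378 CPM depending on the library. The limit covers counting error alone, because without molecular identifiers several reads can come from 1 molecule. Levels of a gene are given below as normalised CPM, counts scaled by library total and edgeR's TMM factors. Levels of different genes are compared only as TPM, which divides counts by exonic length. That length is the union of all annotated exons of a gene, which can exceed the transcript the cells make. It was 5334 bases for COL6A2 and 18592 for LAMB1, so the order of genes by TPM depends on it.

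In control medium 24 of the matrix genes reached 1 TPM. By this measure COL6A2 (69.3 ± 5.17 TPM) and COL6A1 (55.2 ± 0.477 TPM) of type VI collagen led (SD, n = 2 here and for the levels that follow). SPARC, a collagen-binding matricellular protein, had 47.1 ± 3.11 TPM. The laminin β1 chain gene LAMB1 (39.4 ± 2.00 TPM) and the type I collagen gene COL1A1 (36.8 ± 3.82 TPM) followed, and these neighbours did not differ beyond their spread. LAMB2 (16.8 ± 0.355 TPM), TNC (16 ± 0.532 TPM), FN1 (15.7 ± 1.61 TPM) and NID1 lay within the spread of FN1. Chain partners of some of the abundant genes were far lower, with COL1A2 at 0.901 ± 0.00188 TPM and LAMC1 at 0.993 ± 0.223 TPM. COL6A3, the α3 chain gene of type VI collagen, had 0.703 ± 0.0428 TPM.

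**Figure D1:**
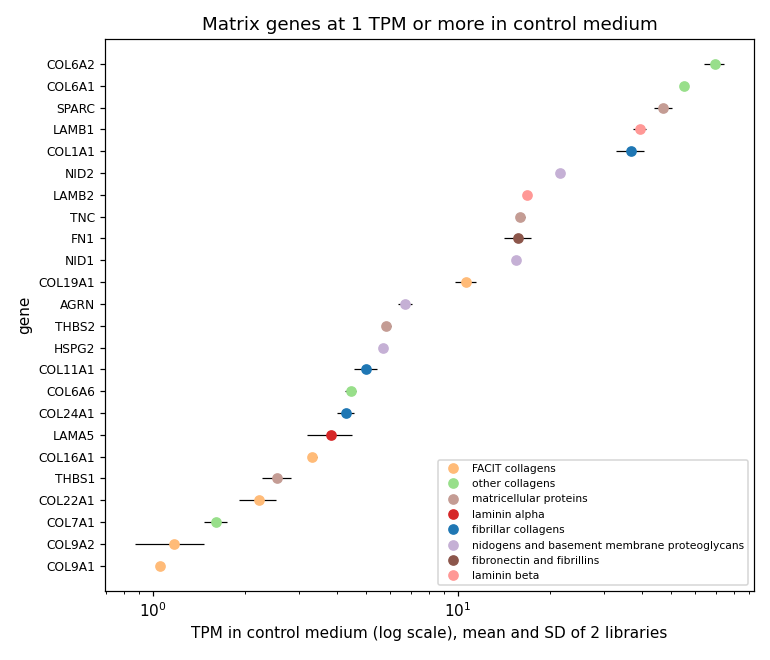
Length-scaled level (TPM, log axis) of the 24 matrix genes at 1 TPM or more in control medium, as the mean and SD of 2 libraries, coloured by family. COL6A2 stood highest at 69.3 TPM and COL9A1 lowest at 1.05 TPM.

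Each medium was compared with control medium with edgeR's quasi-likelihood test, fitted over all 16680 tested genes, and a gene was called changed where its Benjamini-Hochberg adjusted p was under 0.05 and the change reached 1.5-fold in either direction. In chick GS medium 6 matrix genes rose and 2 fell, or 21.1% of the 38 tested, where 8.59% of all tested genes were called (4.73% higher and 3.86% lower). In chick DRG medium 10 rose and 4 fell, or 36.8%, against 20.7% of all tested genes (9.81% higher and 10.9% lower). In mouse GS medium 10 rose and 9 fell, or 50%, against 13.9% of all tested genes (6.65% higher and 7.27% lower). The median log2 fold change of the 38 genes was 0.238, 0.316 and 0.107 in the 3 media in that order, and that of all tested genes 0.0102, 0.00551 and -0.0153. With offsets for GC content and gene length the split in chick GS medium was 5 higher and 3 lower.

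Of the 38 genes, 27 were called in at least 1 medium, and COL27A1 rose in all 3. The call patterns fell mostly into a few kinds. NID1 and LAMC1 rose in both chick media and were not called in mouse GS medium, while AGRN and COL6A3 rose in both chick media and fell in mouse GS medium. TNC showed the reverse, lower in both chick media and higher in mouse GS medium. A further 6 genes rose in mouse GS medium alone (COL1A2, COL5A2, COL14A1, COL22A1, COL7A1 and LAMA2) and 6 fell there alone (COL1A1, COL5A1, NID2, HSPG2, FBN1 and SPARC), counting calls only. The 3 comparisons share the control libraries, so the media were also compared directly, as given further on. COL14A1 passed the filter on low counts through mouse GS medium only and COL8A2 through chick DRG medium only, so each had to be high in that medium, and their calls against it are given without a p. Without these 2 genes 9 rose and 9 fell in mouse GS medium, or 50% of 36, and the counts in the chick media stayed at 6 and 2 and at 10 and 4. LAMB3 passed the filter only through libraries of mouse GS and chick DRG medium, which favoured its calls there. It is still counted as higher in both of these media.

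**Figure D2:**
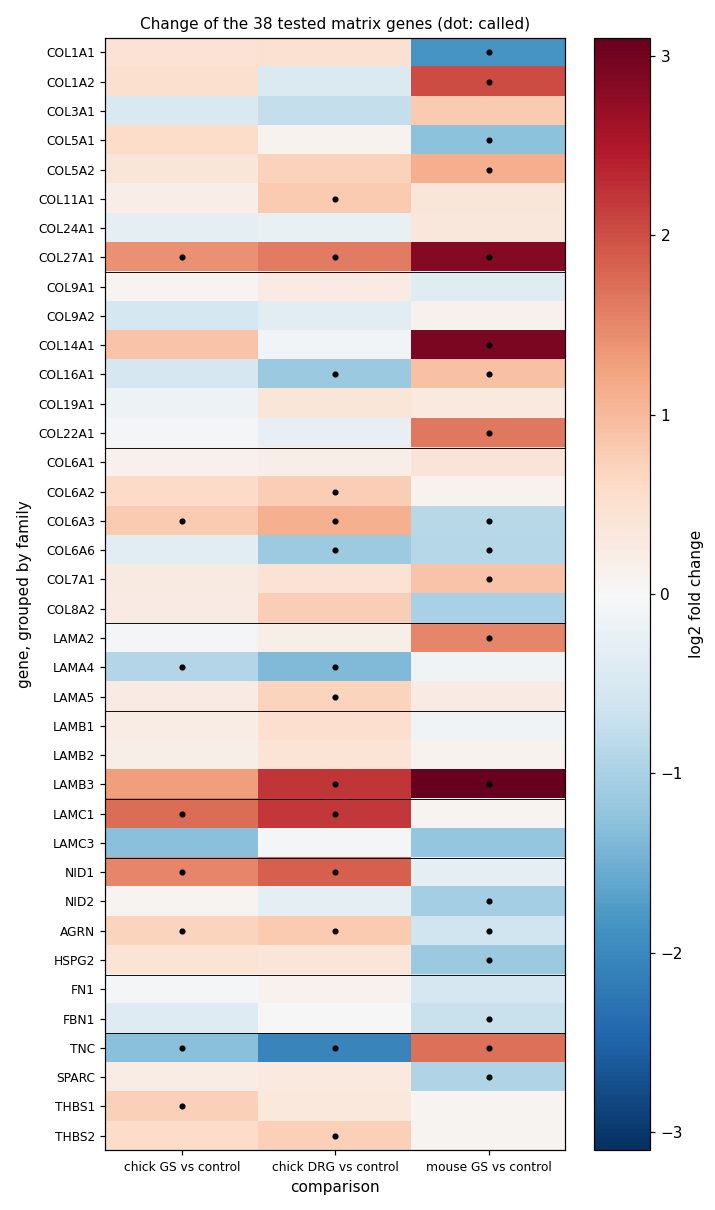
Log2 fold change against control medium (colour) of the 38 tested matrix genes in each conditioned medium, grouped by family, where a dot marks a gene called at adjusted p under 0.05 and at least 1.5-fold. The basement membrane genes NID1, LAMC1 and AGRN are red in both chick columns, and TNC is blue in these and red in the mouse GS column.

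The start regions of 4 genes are shown, because NID1 and LAMC1 had the largest rises shared by both chick media, and TNC and COL16A1 fell in chick DRG medium and rose in mouse GS medium. Each sequence is the 250 bases before the gene's start, 5′ to 3′ on the gene's own strand, from RefSeq on GRCh38.p14. Capitals mark the motifs found, each searched on both strands. The TATA box was read as TATAA and the box of the NF-Y factor as CCAAT. The GC box was read as GGGCGG and the AP-1 site as TGANTCA, and the NF-kB site was searched by its usual consensus. No motif overlapped another in these 4 sequences.
NID1, chr1:236065091-236065340, minus strand: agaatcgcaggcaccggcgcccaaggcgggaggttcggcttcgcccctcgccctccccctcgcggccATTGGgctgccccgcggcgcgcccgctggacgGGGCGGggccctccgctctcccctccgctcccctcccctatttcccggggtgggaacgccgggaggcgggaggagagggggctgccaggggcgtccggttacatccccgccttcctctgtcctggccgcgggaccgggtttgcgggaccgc
LAMC1, chr1:183023170-183023419, plus strand: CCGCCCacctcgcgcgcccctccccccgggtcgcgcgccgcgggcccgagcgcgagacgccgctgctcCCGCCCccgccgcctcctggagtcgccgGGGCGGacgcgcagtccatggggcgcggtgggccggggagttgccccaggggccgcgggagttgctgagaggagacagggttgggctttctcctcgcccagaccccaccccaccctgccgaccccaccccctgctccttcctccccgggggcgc
TNC, chr9:115118158-115118407, minus strand: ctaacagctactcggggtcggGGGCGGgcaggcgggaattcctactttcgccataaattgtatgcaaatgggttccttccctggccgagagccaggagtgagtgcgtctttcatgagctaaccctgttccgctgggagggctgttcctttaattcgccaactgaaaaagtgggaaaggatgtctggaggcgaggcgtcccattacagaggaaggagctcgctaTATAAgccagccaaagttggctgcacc
COL16A1, chr1:31704018-31704267, minus strand: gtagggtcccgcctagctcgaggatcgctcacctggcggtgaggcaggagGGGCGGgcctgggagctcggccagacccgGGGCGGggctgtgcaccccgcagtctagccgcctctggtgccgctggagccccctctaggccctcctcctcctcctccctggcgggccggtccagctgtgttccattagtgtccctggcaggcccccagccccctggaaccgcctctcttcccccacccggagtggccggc

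The NID1 region held 1 CCAAT and 1 GC box, LAMC1 3 GC boxes, TNC 1 TATA box and 1 GC box, and COL16A1 2 GC boxes. The TNC region had the lowest GC content of the 4, at 54.8% against 73.2% in COL16A1, 76.4% in NID1 and 79.6% in LAMC1. None of the 4 held the AP-1 or NF-kB letters in this window. Of the 68 genes, 52 matched the RefSeq table, and 29 of the tested genes could be searched. The GC box was in 20 of these 29 and in 42.3% of 27305 promoters of the same length. The TATA box and the CCAAT letters were in 6 each (19.6% and 33% of all promoters), the NF-kB site in 3 (5.05%) and the AP-1 site in 0 (6.6%). A match is a description of letters and not a binding site.

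Nidogens and basement membrane proteoglycans. All 4 of these genes were tested. In each chick medium 2 were called, both higher (50%, against 8.59% of all tested genes in chick GS and 20.7% in chick DRG medium). In mouse GS medium 3 were called, all lower (75% against 13.9%). NID1 (ENSG00000116962, chromosome 1, 236139130 to 236228409 on GRCh37), the nidogen that bridges laminin and type IV collagen, had 28.7 and 28.8 CPM in control medium, 84.5 and 80.6 in chick GS medium, 104 and 104 in chick DRG medium and 22.3 and 24.4 in mouse GS medium. The libraries of the chick media lay far above all others, without overlap. NID1 rose 2.87-fold in chick GS medium (log2 fold change 1.52, standard error 0.0714, adjusted p = 4.1e-19) and 3.6-fold in chick DRG medium (1.85, standard error 0.0699, adjusted p = 1.32e-22). In mouse GS medium its log2 fold change was -0.30 (adjusted p = 0.0111), under the fold criterion.

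The second nidogen, NID2, did not move with NID1. It had 42.6 and 43.1 CPM in control medium, 45.9 and 45.2 in chick GS medium, 35.4 and 34.2 in chick DRG medium and 21.0 and 20.4 in mouse GS medium. Only its fall in mouse GS medium was called (log2 fold change -1.05, standard error 0.0936, adjusted p = 1.38e-11). NID2 overlaps RTRAF on the opposite strand, and RTRAF itself had a log2 fold change of -0.06 there (adjusted p = 0.406).

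Agrin, encoded by AGRN, clusters acetylcholine receptors at the neuromuscular junction and binds laminin. Its level was 22.3 and 23.7 CPM in control medium, 35.9 and 38.6 in chick GS medium, 39.5 and 40.8 in chick DRG medium and 15.9 and 14.1 in mouse GS medium, so that the groups with chick media lay above control medium and mouse GS medium below it. AGRN rose in chick GS (log2 fold change 0.70, adjusted p = 8.22e-08) and chick DRG medium (0.80, adjusted p = 8.58e-10) and fell in mouse GS medium (-0.63, adjusted p = 3.27e-05). With GC content and length offsets the changes in chick GS (0.58) and mouse GS medium (-0.35) no longer reached 1.5-fold, and without mouse GS replicate 2 the latter was -0.54. The gene of perlecan, HSPG2, had 32.6 and 33.0 CPM in control medium, 48.4 and 39.8 in chick GS medium, 42.0 and 43.8 in chick DRG medium and 13.5 and 15.9 in mouse GS medium. HSPG2 fell in mouse GS medium (-1.16, standard error 0.116, adjusted p = 2.68e-10). In the chick media its log2 fold changes of 0.42 and 0.39 passed the adjusted p (0.000244 and 0.000347) but not 1.5-fold.

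**Figure D3:**
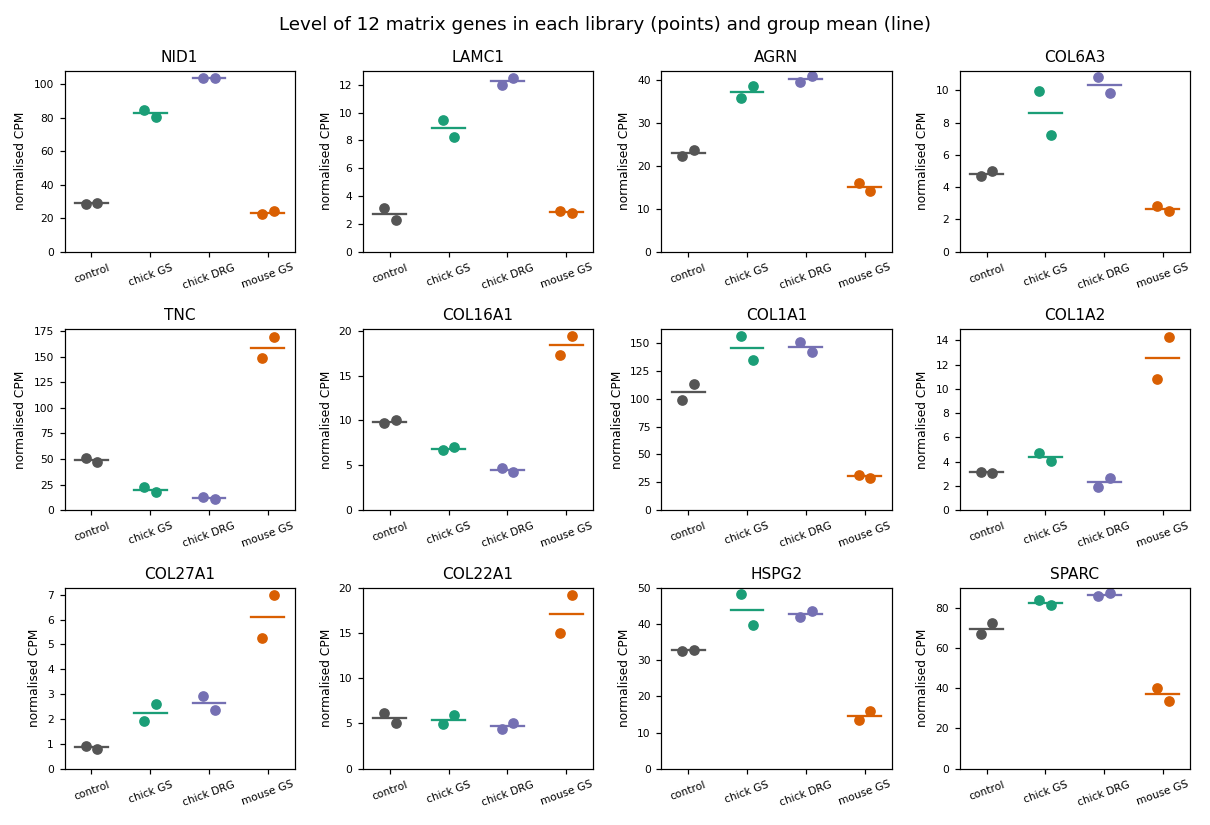
Normalised CPM (linear axis from 0) of 12 matrix genes in each of the 8 libraries (points) with the group mean (line). NID1, LAMC1, AGRN and COL6A3 are highest in the chick media, TNC, COL16A1, COL1A2, COL27A1 and COL22A1 in mouse GS medium, and COL1A1, HSPG2 and SPARC are lowest in mouse GS medium.

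Laminins. A laminin molecule joins 1 alpha, 1 beta and 1 gamma chain. Of 12 laminin genes 8 were tested. In chick GS medium 1 rose and 1 fell (25% against 8.59% of all tested genes), and in chick DRG medium 3 rose and 1 fell (50% against 20.7%). In mouse GS medium 2 were called, both higher (25% against 13.9%). LAMB3 was among those that rose in chick DRG and mouse GS medium, and its passing of the filter favoured these calls. The γ1 chain gene LAMC1 (ENSG00000135862, chromosome 1, 182992555 to 183114727 on GRCh37), whose product is part of most laminins, had 3.13 and 2.24 CPM in control medium, 9.46 and 8.26 in chick GS medium, 12 and 12.5 in chick DRG medium and 2.95 and 2.74 in mouse GS medium. Its chick libraries stood clear of the other 4. LAMC1 rose 3.32-fold in chick GS medium (log2 fold change 1.73, standard error 0.197, adjusted p = 8.5e-09) and 4.6-fold in chick DRG medium (2.20, standard error 0.187, adjusted p = 1.71e-12), and its value in mouse GS medium was 0.10 (adjusted p = 0.825).

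LAMB1, the β1 chain gene, was the laminin with the highest level per length in control medium. It had 228 and 241 CPM in control medium, 282 and 270 in chick GS medium, 351 and 325 in chick DRG medium and 209 and 227 in mouse GS medium. Its log2 fold change in chick DRG medium was 0.53 (standard error 0.0520, adjusted p = 7.55e-11), short of 1.5-fold, and 0.59 without chick DRG replicate 2. LAMB1 overlaps DLD on the opposite strand, which had -0.08 in that medium (adjusted p = 0.236). LAMB2, the β2 chain gene, ran from 36.0 to 51.9 CPM over the 8 libraries and was called in no comparison.

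LAMB3, a laminin chain of epithelia, was low, with 0.153 and 0.197 CPM in control medium, 0.561 and 0.350 in chick GS medium, 0.972 and 0.733 in chick DRG medium and 1.41 and 1.71 in mouse GS medium. No library of a conditioned medium fell to the control level. LAMB3 rose in mouse GS medium (log2 fold change 3.08, standard error 0.62) and in chick DRG medium (2.21). The second call was lost without chick DRG replicate 1 (1.99) and with DESeq2. No control or chick GS library reached the filter's level for LAMB3. The gene was tested only through libraries of mouse GS and chick DRG medium, so its calls against control medium are given without a p. The control libraries held 2 and 3 counts of LAMB3, so these fitted fold changes depend on the prior count. LAMA3, another laminin chain of epithelia, was sparser still, with at most 4 counts in any library.

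Among the alpha chains LAMA5 had the highest level per length, at 3.84 ± 0.645 TPM in control medium. It had 15.6 and 19.5 CPM in control medium, 19.3 and 22.8 in chick GS medium, 28.5 and 28.3 in chick DRG medium and 21.1 and 20.9 in mouse GS medium. LAMA5 rose in chick DRG medium (log2 fold change 0.69, adjusted p = 8.67e-07), and without control replicate 1 the value was 0.55, under 1.5-fold. It overlaps ADRM1 on the opposite strand, whose value there was -0.11 (adjusted p = 0.106).

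LAMA4, an alpha chain of vessels and nerve, had 2.06 and 3.09 CPM in control medium, 1.36 and 1.40 in chick GS medium, 0.897 and 1.10 in chick DRG medium and 2.31 and 2.51 in mouse GS medium. It fell in both chick media (-0.91, adjusted p = 0.0261, and -1.37, adjusted p = 0.000892). The fall in chick GS medium was lost without control replicate 2 (-0.57, adjusted p = 0.359) or either chick GS library (adjusted p = 0.0911 and 0.0997), and that in chick DRG medium without control replicate 2 (-1.04, adjusted p = 0.0523). LAMA2, the alpha chain of muscle and Schwann cell basement membrane, had 0.994 and 0.855 CPM in control medium, 1.04 and 0.770 in chick GS medium, 1.42 and 0.659 in chick DRG medium and 3.33 and 2.06 in mouse GS medium. Its rise in mouse GS medium (1.52, standard error 0.41, adjusted p = 0.00328) was lost without mouse GS replicate 1 (1.15, adjusted p = 0.106) and with DESeq2 (adjusted p = 0.0534). LAMA2 overlaps the pseudogenes BMPR1AP1 and MESTP1 on the opposite strand, with 565 and 602 counts over all libraries against 122 of LAMA2. In mouse GS medium these pseudogenes had 0.0005 and -0.07 (adjusted p = 0.999 and 0.833). LAMC3 varied from 0 to 1.45 CPM, with 0.153 and 1.45 in the control libraries themselves, and was called in no comparison.

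Type IV collagen, the network partner of laminin, was nearly missing from the counts. COL4A1, COL4A3, COL4A4, COL4A5 and COL4A6 had no count in any library and COL4A2 had 1 count in all, so a change of type IV collagen was not detectable at this depth. The region around COL4A1 was otherwise read, with 1 of its 9 protein-coding neighbours within 1 Mb at 0. Multiplexins of the basement membrane were equally low, COL18A1 with 1 to 3 counts per library and COL15A1 with none (0 of its 15 neighbours were at 0).

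Fibrillar collagens. Of 11 genes 8 were tested. In chick GS medium 1 rose (12.5%, near the 8.59% of all tested genes), in chick DRG medium 2 (25%, near 20.7%), and in mouse GS medium 3 rose and 2 fell (62.5% against 13.9%). The 2 genes of type I collagen, whose usual molecule has 2 α1 chains and 1 α2 chain, moved apart. COL1A1 (ENSG00000108821, chromosome 17, 48261462 to 48278993 on GRCh37) had 99.1 and 113 CPM in control medium, 156 and 135 in chick GS medium, 151 and 142 in chick DRG medium and 31.9 and 28.4 in mouse GS medium. Both mouse GS libraries lay well below the other 6. COL1A1 fell 3.53-fold in mouse GS medium (log2 fold change -1.82, standard error 0.0887, adjusted p = 5.91e-16), and its values of 0.46 in each chick medium (adjusted p = 5.15e-06 and 1.39e-06) did not reach 1.5-fold.

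COL1A2 (ENSG00000164692, chromosome 7, 94024207 to 94060539 on GRCh37) had 3.13 and 3.09 CPM in control medium, 4.73 and 4.06 in chick GS medium, 1.94 and 2.64 in chick DRG medium and 10.8 and 14.3 in mouse GS medium. Here the mouse GS libraries were the highest. COL1A2 rose 4.04-fold in mouse GS medium (2.01, standard error 0.204, adjusted p = 3.14e-10), with 0.49 in chick GS (adjusted p = 0.101) and -0.44 in chick DRG medium (adjusted p = 0.166).

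The ratio of COL1A1 to COL1A2, each divided by its exonic length, was 37.9 and 43.8 in the control libraries, 39.7 and 40 in chick GS medium, 93.3 and 64.5 in chick DRG medium and 3.56 and 2.39 in mouse GS medium. The ratio of LAMB1 to LAMC1 was 33 and 48.9 in control medium, 13.6 and 14.9 in chick GS medium, 13.3 and 11.8 in chick DRG medium and 32.3 and 37.5 in mouse GS medium. For NID1 over NID2 it was 0.722 and 0.715, then 1.97 and 1.91, 3.13 and 3.24, and 1.14 and 1.28 in the same order. The ratio of type I collagen was thus lowest in mouse GS medium and highest in chick DRG medium, in every library. That of the laminins was lower in both chick media than in control and mouse GS medium, also in every library. The ratios are given as a description, without a test, since an exact permutation test of 2 libraries against 2 allows no p under 0.333. Their absolute size depends on the exonic lengths used, which cancel when the same ratio is compared between libraries.

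**Figure D4:**
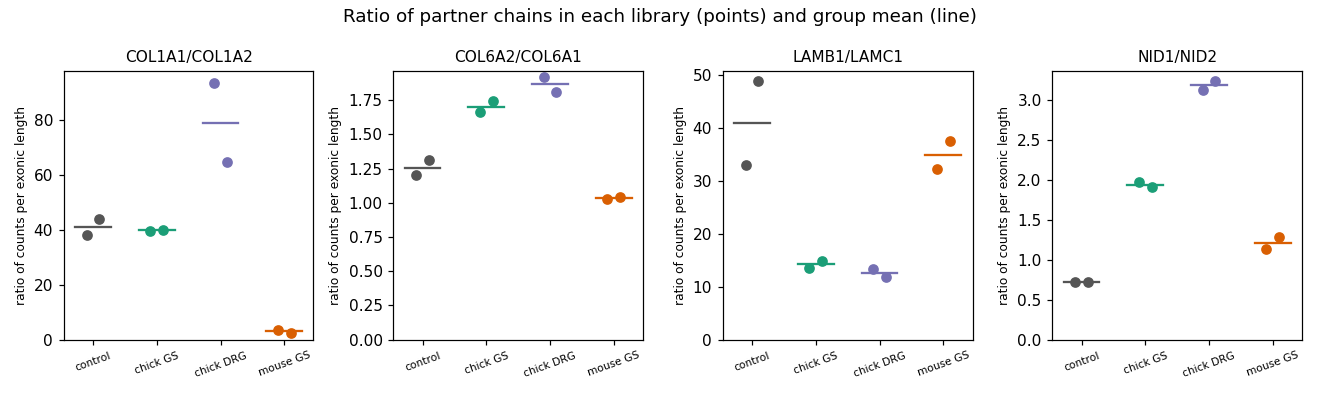
Ratio of 4 pairs of partner genes, each as counts per exonic length, in each library (points) with the group mean (line), on linear axes from 0. COL1A1 over COL1A2 averaged 40.9 in control medium and 2.97 in mouse GS medium, and LAMB1 over LAMC1 averaged 41 in control medium and 14.2 and 12.6 in the chick GS and chick DRG media.

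COL27A1, a fibrillar collagen of cartilage, was the gene that rose in all 3 media. It had 0.918 and 0.789 CPM in control medium, 1.92 and 2.59 in chick GS medium, 2.92 and 2.34 in chick DRG medium and 5.25 and 6.97 in mouse GS medium, with both control libraries below every other. Its log2 fold changes were 1.41 (adjusted p = 0.00197), 1.62 (adjusted p = 0.000145) and 2.84 (adjusted p = 2.32e-09), and the first call was lost without chick GS replicate 2 (1.17, adjusted p = 0.0509). COL11A1, which nucleates thin fibrils in cartilage, had 13.8 and 15.3 CPM in control medium, 17.0 and 16.5 in chick GS medium, 27.7 and 23.3 in chick DRG medium and 17.7 and 20.1 in mouse GS medium. It rose in chick DRG medium (0.81, standard error 0.109, adjusted p = 8.52e-08).

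Type V collagen, which sets fibril diameter, split by chain in mouse GS medium. COL5A1 had 2.52 and 2.17 CPM in control medium, 3.93 and 3.01 in chick GS medium, 2.84 and 2.20 in chick DRG medium and 0.769 and 1.14 in mouse GS medium. COL5A2 had 0.688 and 0.789, 0.882 and 1.05, 1.35 and 1.10, and 1.67 and 1.60 CPM in the same order. COL5A1 fell in mouse GS medium (-1.27, adjusted p = 0.00984), a call lost without control replicate 1 (adjusted p = 0.0519), without mouse GS replicate 1 (adjusted p = 0.103) and with DESeq2 (adjusted p = 0.0748). COL5A2 rose there (1.13, adjusted p = 0.0453), and 13 of 16 alternatives lost that call, among them the leaving out of any library except chick GS replicate 1.

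COL3A1, the partner of type I collagen in soft tissue, had 1.61 and 0.921 CPM in control medium, 0.401 and 1.33 in chick GS medium, 1.20 and 0.293 in chick DRG medium and 2.05 and 2.28 in mouse GS medium. Its control and chick libraries overlapped, and no comparison with control medium was called, although without chick DRG replicate 1 the value in chick DRG medium was -2.05 (adjusted p = 0.0259). COL24A1 had 12.6 and 13.6 CPM in control medium, 11.1 and 10.6 in chick GS medium, 10.9 and 11.4 in chick DRG medium and 17.3 and 16.1 in mouse GS medium. Its mouse GS libraries were the highest, and it was not called against control medium either. Of the untested fibrillar genes, COL2A1 had at most 4 counts in a library and COL5A3 at most 1.

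COL11A2 was listed at 0 in every library, which says little about the gene. It lies in the major histocompatibility region, where 48 of 58 protein-coding neighbours within 1 Mb (82.8%) were listed at 0, against 20.8% of all 19837 protein-coding genes. Of 12 genes checked in that region 9 were at 0, RPS18 and TUBB among them.

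FACIT collagens. Of 10 genes 6 were tested. In mouse GS medium 3 rose, COL14A1 among them (50% against 13.9% of all tested genes). In chick DRG medium 1 fell (16.7%, under the 20.7% of all tested genes). In chick GS medium 0 were called by edgeR or by DESeq2, against 8.59% of all tested genes (1 had an unadjusted p under 0.05 there). COL16A1 (ENSG00000084636, chromosome 1, 32117864 to 32169920 on GRCh37) had 9.71 and 10 CPM in control medium, 6.65 and 7.07 in chick GS medium, 4.64 and 4.25 in chick DRG medium and 17.3 and 19.4 in mouse GS medium. The groups were ordered without overlap, chick DRG lowest and mouse GS highest. COL16A1 fell 2.22-fold in chick DRG medium (log2 fold change -1.15, standard error 0.166, adjusted p = 3.16e-07) and rose 1.87-fold in mouse GS medium (0.90, standard error 0.139, adjusted p = 2.25e-06). In chick GS medium the value was -0.52 (adjusted p = 0.00786), and with GC content and length offsets -0.59, past 1.5-fold.

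COL22A1, a collagen of tissue junctions such as that of muscle and tendon, had 6.19 and 5.00 CPM in control medium, 4.89 and 5.95 in chick GS medium, 4.34 and 5.05 in chick DRG medium and 15 and 19.3 in mouse GS medium. Only the mouse GS libraries stood apart, where COL22A1 rose 3.09-fold (1.63, standard error 0.171, adjusted p = 6.87e-10). COL14A1 had 0.153 and 0.460 CPM in control medium, 0.641 and 0.560 in chick GS medium, 0.299 and 0.293 in chick DRG medium and 1.79 and 3.08 in mouse GS medium. Both mouse GS libraries were above the other 6, with a fitted log2 fold change of 2.92 in the medium through which the gene passed the filter. COL19A1 was the FACIT collagen with the highest level per length (10.6 ± 0.817 TPM in control medium). It ran from 30.9 to 51.6 CPM and was called in no comparison, as were COL9A1 and COL9A2. COL19A1 overlaps LMBRD1 on the opposite strand, which had 1330 counts over the 8 libraries against 4041 of COL19A1. The 4 untested FACIT genes, COL9A3, COL12A1, COL20A1 and COL21A1, had at most 5 counts in a library.

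Other collagens. Type VI collagen makes beaded filaments around cells from α1, α2 and α3 chains. COL6A2 had 113 and 123 CPM in control medium, 174 and 180 in chick GS medium, 213 and 187 in chick DRG medium and 125 and 131 in mouse GS medium. It rose in chick DRG medium (log2 fold change 0.76, standard error 0.0590, adjusted p = 2.91e-13), and its 0.58 in chick GS medium (adjusted p = 8.74e-10) lay just under the fold criterion and passed it in 6 of 17 alternatives. COL6A1 had 97.9 and 97.4, 108 and 107, 115 and 107, and 125 and 131 CPM in the same order and was called in no comparison, its largest value being 0.39 in mouse GS medium (adjusted p = 1.31e-06).

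COL6A3 (ENSG00000163359, chromosome 2, 238232646 to 238322971 on GRCh37) had 4.66 and 5.00 CPM in control medium, 9.94 and 7.21 in chick GS medium, 10.8 and 9.82 in chick DRG medium and 2.82 and 2.51 in mouse GS medium. As for AGRN, the chick libraries were above and the mouse GS libraries below both control libraries. COL6A3 rose in chick GS (0.81, adjusted p = 0.000591) and chick DRG medium (1.09, adjusted p = 2.19e-06) and fell in mouse GS medium (-0.86, adjusted p = 0.00789). The call in chick GS medium was lost without chick GS replicate 1 (0.58), and that in mouse GS medium without mouse GS replicate 2 (-0.79, adjusted p = 0.0852).

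COL6A6, an alternative α3-like chain, went the other way in chick DRG medium. It had 12.3 and 12.8 CPM in control medium, 10.3 and 9.73 in chick GS medium, 5.16 and 6.37 in chick DRG medium and 8.33 and 5.48 in mouse GS medium, and fell in chick DRG (-1.12, adjusted p = 3.02e-07) and mouse GS medium (-0.88, adjusted p = 0.000114). COL7A1, the anchoring fibril collagen of skin, had 5.43 and 6.05, 7.38 and 6.72, 6.73 and 9.01, and 10.9 and 10.3 CPM in the same order. It rose in mouse GS medium (0.88, standard error 0.18, adjusted p = 0.000176), and without chick DRG replicate 1 also in chick DRG medium (0.64, adjusted p = 0.00883). COL8A2 had 0.688 and 0.329 CPM in control medium, 0.641 and 0.560 in chick GS medium, 0.897 and 0.806 in chick DRG medium and 0.256 and 0.228 in mouse GS medium. Its chick DRG libraries were the highest, and it was not called against control medium. The 4 transmembrane collagens and the 5 other untested chains of this group had at most 11 counts in a library, the most being for COL26A1, and COL25A1 had none.

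Fibronectin and fibrillins. FN1, the main adhesive glycoprotein of plasma and embryonic matrix, had 80.9 and 91.9 CPM in control medium, 91.3 and 75.2 in chick GS medium, 93.6 and 94.1 in chick DRG medium and 56.5 and 64.9 in mouse GS medium. Its mouse GS libraries were the lowest, yet the log2 fold change of -0.51 (standard error 0.0887, adjusted p = 8.41e-05) did not reach 1.5-fold. It passed in 4 of 17 alternatives, among them GC content and length offsets (-0.62) and the fits without control replicate 1 (-0.60) or mouse GS replicate 2 (-0.62). FBN1, the core of elastic microfibrils, had 4.43 and 5.26 CPM in control medium, 4.01 and 3.43 in chick GS medium, 5.09 and 4.61 in chick DRG medium and 3.59 and 2.51 in mouse GS medium. Its fall in mouse GS medium (-0.69, adjusted p = 0.0289) was lost without control replicate 2 (adjusted p = 0.173), without mouse GS replicate 2 (adjusted p = 0.327) and with DESeq2 (adjusted p = 0.184). FBN2 had at most 2 counts in a library.

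Matricellular proteins. Tenascin-C, which weakens adhesion to fibronectin, gave the largest differences among the glycoproteins in mouse GS medium. TNC (ENSG00000041982, chromosome 9, 117781854 to 117880486 on GRCh37) had 50.7 and 47.5 CPM in control medium, 22.1 and 17.8 in chick GS medium, 12.9 and 11 in chick DRG medium and 149 and 169 in mouse GS medium. The 4 groups were ordered without overlap. TNC fell 2.47-fold in chick GS medium (log2 fold change -1.30, standard error 0.0946, adjusted p = 5.38e-13) and 4.1-fold in chick DRG medium (-2.04, standard error 0.104, adjusted p = 7.82e-18), and rose 3.25-fold in mouse GS medium (1.70, standard error 0.0766, adjusted p = 5.36e-19).

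SPARC had 67.2 and 72.5 CPM in control medium, 83.9 and 81.4 in chick GS medium, 86.1 and 87.5 in chick DRG medium and 40.1 and 33.9 in mouse GS medium, and fell in mouse GS medium (-0.92, standard error 0.0795, adjusted p = 5.43e-12). The thrombospondins, which bind calcium and restrain vessel growth, were called against control medium in the chick media only. THBS1 had 6.96 and 7.96 CPM in control medium, 12 and 12.8 in chick GS medium, 8.68 and 10 in chick DRG medium and 8.46 and 7.43 in mouse GS medium, and rose in chick GS medium (0.73, standard error 0.146, adjusted p = 0.000148). THBS2 had 13.8 and 13.0, 20.8 and 19.0, 22.1 and 22.6, and 14.0 and 14.4 CPM in the same order. It rose in chick DRG medium (0.74, standard error 0.108, adjusted p = 3.88e-07), and its 0.57 in chick GS medium (adjusted p = 8.63e-05) passed 1.5-fold in 3 of 17 alternatives. The overlapping opposite-strand genes FSIP1 at THBS1 and THBS2-AS1 at THBS2 had 109 and 64 counts over all libraries, against 929 and 1748 of the thrombospondins. FSIP1 had log2 fold changes of -1.51, -1.31 and 1.09 in chick GS, chick DRG and mouse GS medium (adjusted p = 0.0214, 0.0262 and 0.0257). THBS2-AS1 had -2.66 in chick DRG medium (adjusted p = 0.00107). POSTN, the gene of periostin, had no count, while 1 of its 9 neighbours was at 0.

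Direct comparison of the media. Between the 2 chick media 5 of the 38 genes were called, 1 higher and 4 lower in chick DRG medium, or 13.2% against 7.49% of all tested genes (2.62% higher and 4.87% lower). COL11A1 was higher in chick DRG medium (log2 fold change 0.61, adjusted p = 3.19e-05), a call lost without chick DRG replicate 1 (0.48). TNC (-0.73, adjusted p = 1.36e-05), COL16A1 (-0.63, adjusted p = 0.0064), COL1A2 (-0.93, adjusted p = 0.00357) and COL6A6 (-0.80, adjusted p = 0.000357) were lower. Without chick GS replicate 1 TNC was at -0.57, without chick DRG replicate 1 COL1A2 had an adjusted p of 0.0794, and without chick GS replicate 2 or chick DRG replicate 2 COL16A1 had 0.0561 and 0.0613 (0.0566 with DESeq2). NID1 and LAMC1 were higher in chick DRG than in chick GS medium by 0.33 (standard error 0.0616, adjusted p = 6.98e-05) and 0.47 (standard error 0.151, adjusted p = 0.0154), differences that passed the adjusted p and stayed under 1.5-fold.

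Between mouse GS and chick GS medium 21 genes were called, 11 higher and 10 lower in mouse GS medium, or 55.3% against 22.3% of all tested genes (10.2% higher and 12.1% lower). Between mouse GS and chick DRG medium there were 24, with 9 higher and 15 lower, or 63.2% against 26.2% (13.1% in each direction). Without COL14A1 and COL8A2 these counts were 20 and 22, with LAMB3 still among the 20. All 4 nidogen and proteoglycan genes were lower in mouse GS medium in both of these comparisons. NID1 differed by -1.82 from chick GS and -2.15 from chick DRG medium (adjusted p = 5.31e-20 and 7.44e-23), LAMC1 by -1.63 and -2.10 (adjusted p = 1.3e-07 and 9.43e-11) and HSPG2 by -1.58 and -1.54 (adjusted p = 1.83e-14 and 1.96e-14).

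TNC was 8.02-fold higher in mouse GS than in chick GS medium (3.00, standard error 0.0876, adjusted p = 4.02e-24) and 13.3-fold higher than in chick DRG medium (3.73, standard error 0.0949, adjusted p = 3.2e-26). COL1A1 was 4.83-fold and 4.86-fold lower (adjusted p = 1.04e-18 and 4.23e-19), while COL1A2 was 2.87-fold and 5.47-fold higher (adjusted p = 2.88e-08 and 4.04e-12). COL22A1, COL27A1 and COL16A1 were also higher in mouse GS medium against both, by 1.22 to 2.05 on the log2 scale. Of the 20 tested collagens 8 were higher and 3 lower than in chick GS medium, and 6 were higher and 5 lower than in chick DRG medium. This was 55% in each comparison, against 22.3% and 26.2% of all tested genes. These calls include COL14A1, higher in both, and COL8A2, lower than in chick DRG medium. Each of these passed the filter on low counts only through the medium where it was high. Of the 10 tested glycoproteins TNC alone was higher in each comparison, while 6 were lower than in chick GS and 8 lower than in chick DRG medium. With TNC this was 70% and 90% called, against the same shares of all tested genes. The difference between these families was not tested.

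Several of the calls against the chick media rested on few libraries. COL3A1 was higher in mouse GS medium (1.27 and 1.54, adjusted p = 0.0326 and 0.0121), and lost the first call without chick GS replicate 1 or either mouse GS library (adjusted p = 0.267, 0.0803 and 0.155) and the other without chick DRG replicate 2 or mouse GS replicate 2 (0.195 and 0.0815). COL8A2 was at -1.77 against chick DRG medium, the medium through which it passed the filter, and 8 of 14 alternatives lost that call, among them each fit without a chick DRG or mouse GS library. LAMA2 (1.56 and 1.35) lost both calls without mouse GS replicate 1 (adjusted p = 0.0787 and 0.135) and the second without chick DRG replicate 2 (0.11). LAMB3 (1.78 against chick GS medium), whose passing of the filter favoured this call, was not called without chick GS replicate 2 (1.46) or mouse GS replicate 2 (1.62). FBN1 (-0.68 against chick DRG medium) was not called without chick DRG replicate 1 (-0.60) or mouse GS replicate 2 (-0.44). With DESeq2 the calls of COL3A1 (adjusted p = 0.162 and 0.0846), LAMB3 (0.077), FBN1 (0.148), and LAMA2 (0.0664) and LAMA4 (1.26 in edgeR, 0.0549 in DESeq2) against chick DRG medium were lost as well.

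Other calls between these media stood near the fold criterion. Against chick GS medium, COL24A1 (0.62) was at 0.58 without chick GS replicate 2 and 0.56 without mouse GS replicate 1, THBS1 (-0.65) was at -0.56 without mouse GS replicate 2, and COL7A1 (0.59) lost its call in 7 of 17 alternatives, the lowest value being 0.51 without chick GS replicate 2. Against chick DRG medium, COL6A2 (-0.64) and LAMB1 (-0.63) were at -0.53 and -0.57 without chick DRG replicate 1, and FN1 (-0.63) was at -0.54 without mouse GS replicate 1. With GC content and length offsets COL6A2 was at -0.35.

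**Figure D5:**
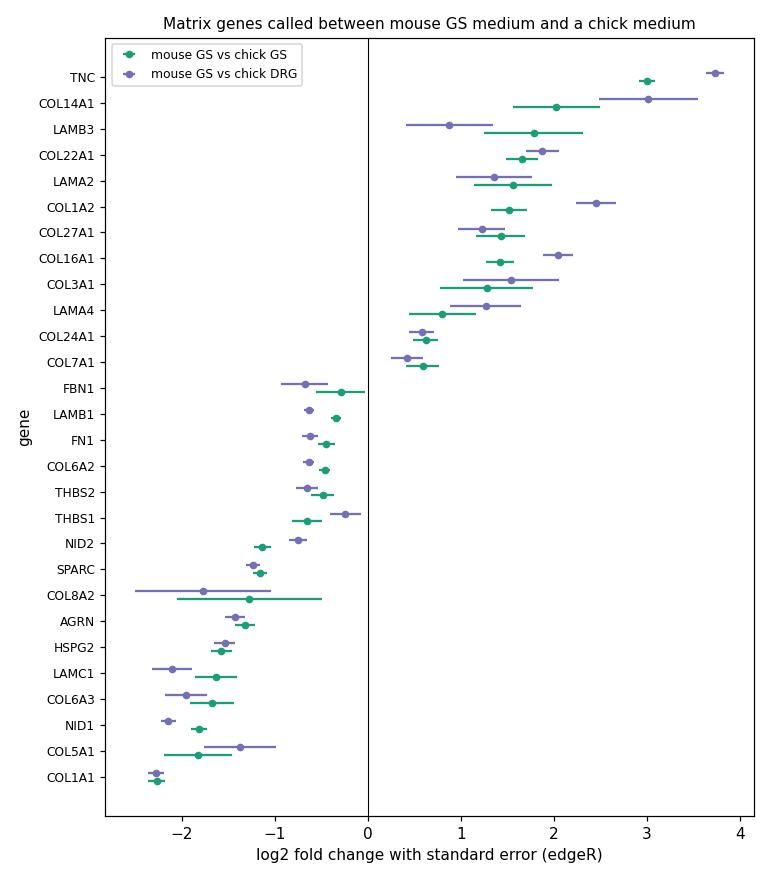
Log2 fold change with its standard error (edgeR) of mouse GS medium against chick GS medium (green) and against chick DRG medium (purple), for the 28 matrix genes called in at least 1 of these comparisons. TNC lies at 3.00 and 3.73 at the top and COL1A1 at -2.27 and -2.28 at the bottom.

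Enzymes and chaperones of collagen synthesis formed a separate list of 32 genes, 28 of them tested. In chick GS medium edgeR and DESeq2 called 0 of these (10 had an unadjusted p under 0.05), in chick DRG medium 4 were called, all higher (2 with DESeq2), or 14.3% against 20.7% of all tested genes, and in mouse GS medium 3 rose and 3 fell, or 21.4% against 13.9%, with list medians of 0.114, 0.0969 and 0.00904 on the log2 scale. LOXL2 and LOX, which oxidise lysines for cross-linking, rose in chick DRG medium (1.23, adjusted p = 0.0373, and 0.78, adjusted p = 0.00913). The prolyl hydroxylase subunit P4HA2 (1.09, adjusted p = 8.02e-11) and the lysyl hydroxylase PLOD2 (0.70, adjusted p = 1.95e-09) rose there too. In mouse GS medium LOXL2 (2.02, adjusted p = 0.00106), the procollagen proteinase relative TLL1 (1.66, adjusted p = 2.41e-12) and PLOD2 (0.61, adjusted p = 4.69e-07) rose. The procollagen chaperone FKBP10 (-0.77, adjusted p = 2.66e-11) and LOXL1 (-0.76, adjusted p = 3.96e-05) fell. ADAMTS2, which removes the amino propeptide of type I collagen, had 0.765 and 1.38 CPM in control medium and no count in either mouse GS library (adjusted p = 0.000114). The collagen chaperone SERPINH1 ran from 94.1 to 129 CPM and was not called.

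Receptors for these matrix proteins made up a list of 29 genes, 26 tested. In chick GS medium 6 rose and 2 fell, in chick DRG medium 5 and 3, and in mouse GS medium 3 and 5, or 30.8% in each against 8.59%, 20.7% and 13.9% of all tested genes. DESeq2 gave 5 and 1, 4 and 2, and 2 and 4. The integrin α chain genes ITGA3 and ITGA6, whose products bind laminin, rose in both chick media. ITGA3 had log2 fold changes of 1.42 and 2.29 in chick GS and chick DRG medium (adjusted p = 4e-10 and 1.09e-16) and ITGA6 of 0.99 and 1.30 (adjusted p = 0.00027 and 9.4e-07). ITGA5, part of the fibronectin receptor, rose by 1.00 and 1.72 (adjusted p = 2.14e-14 and 1.23e-22), ITGA7 by 0.73 in chick GS medium (adjusted p = 0.00154) and ITGA11 by 1.34 in chick DRG medium (adjusted p = 0.00716).

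In mouse GS medium ITGA6 (-1.08, adjusted p = 0.00669), the hyaluronan receptor CD44 (-1.20, adjusted p = 3.58e-19) and the syndecan SDC3 (-0.96, adjusted p = 1.42e-07) fell. ITGB8 (1.06, adjusted p = 0.0153), ITGA1 (0.79, adjusted p = 5.95e-16), a receptor chain for collagens and laminins, and ITGAV (0.76, adjusted p = 1.53e-13) rose there. ITGA9, which binds tenascin-C, fell in chick GS (-0.78), chick DRG (-1.02) and mouse GS medium (-0.76), with adjusted p of 0.00119, 2.79e-05 and 0.00337. ITGB8 (-0.99, adjusted p = 0.0499) and ITGB5 (-0.64, adjusted p = 2.51e-10) fell in chick DRG medium. ITGB1, the β chain shared by most matrix integrins, ran from 381 to 509 CPM and was not called.

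Markers were read for the labelled cell type and for others. All 8 noradrenergic neuroblastoma genes of the list, such as HAND2 and MYCN, were present. Their summed level was 5940 to 6030 CPM in control medium, 4400 to 4680 in chick GS medium, 3540 to 3640 in chick DRG medium and 3570 to 3730 in mouse GS medium. Counts of a single gene reached 70102 in a library, so 1 gene dominates this sum and it does not describe the set. In the 3 conditioned media 2, 5 and 3 of the 8 genes fell, or 25%, 62.5% and 37.5%, against 8.59%, 20.7% and 13.9% of all tested genes called. The list medians were -0.403, -0.815 and -0.485 on the log2 scale. The 6 fibroblast and mesenchyme genes summed to 658 to 689 CPM in control medium, 627 to 653 in chick GS medium, 659 to 685 in chick DRG medium and 685 to 690 in mouse GS medium. Within that list 3 of 6 genes rose in mouse GS medium, namely DCN (2.30, adjusted p = 1.13e-11), LUM (0.93, adjusted p = 1.82e-11) and PDGFRA (3.65, adjusted p = 1.4e-12). THY1 fell there (-0.65, adjusted p = 2.14e-10), so 66.7% of the list were called, against 13.9% of all tested genes. In the same medium 7 of the 20 tested collagens rose and 4 fell (55%), COL1A2 among the former and COL1A1 among the latter. COL14A1, which passed the filter through that medium only, is among those that rose. Of the 10 tested glycoproteins 1 rose and 5 fell (60%). In chick DRG medium DCN fell (-0.69, adjusted p = 0.0383), a call that DESeq2 did not make. The part of these genes in the collagen changes was not tested, and in bulk aggregates fewer cells of a type and less RNA per cell cannot be told apart. SOX10 and FABP7 of Schwann cells and glia and CDH5 and EMCN of endothelium had no count. The 6 glial genes summed to 1.12 to 1.45 CPM in control medium, 2.24 to 2.45 in chick GS medium, 2.47 to 4.1 in chick DRG medium and 2.43 to 3.31 in mouse GS medium. Among them ERBB3 rose in chick DRG (1.76, adjusted p = 0.000165) and mouse GS medium (1.72, adjusted p = 0.00108), and the part of the glial genes in the matrix changes was not tested. The 4 endothelial genes summed to at most 1.07 CPM, and no macrophage gene exceeded 6 counts in a library.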

How the data were processed

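RNA of the human line IGR-N91 was sequenced as 2 libraries in each of 4 media, starting from 50 ng with a strand-preserving kit, as single 75 bp reads. Reads were trimmed by the authors (cutadapt 1.9.1), mapped (TopHat2 2.1.0) and counted per gene (HTSeq 0.11.3), and the deposited values are raw read counts without normalization. The study's methods name hg19 and the submitters' processing notes hg38. The strand option of the counting is not given in the sources used here, so genes that overlap on opposite strands may share counts. Symbols, exonic lengths and positions came from GENCODE 44 mapped to GRCh37 by gene ID (58611 of 60676 rows).

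Counts were scaled by TMM, filtered with filterByExpr and fitted in 1 model of the 8 libraries with edgeR 4.0.16 (robust quasi-likelihood, R 4.3.3), adjusting p over 16680 genes by Benjamini-Hochberg. The standard error is the log2 fold change divided by the root of F. The fit was tested on simulated data. Replicate libraries correlated at 0.989 to 0.993 in log2 CPM across genes and differed by a chi-square per gene of 1.78 to 3.64, more than the 1 of counting error. Genes called in any of 6 comparisons are given with every library, other tested genes by range unless they lead their family, and the synthesis and receptor lists by up to 4 called genes per direction with a mean of at least 1 CPM. Matrix genes, families and lists were chosen with earlier results of these data known. Alternatives were other size factors, DESeq2 1.42.0, other filters, adjusted p alone, the compared libraries alone, the replicate number as a block, offsets for GC content and length, thinned counts and leaving out each library. PECAM1 was not matched. The single values of a few listed genes are not reported here.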

Additional observations from a re-analysis of the deposited data

Results flagged for a closer look

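For 4 genes 2 media gave called changes from control medium, each past 1.5-fold, in opposite directions, and the direct test between those media was called as well. TNC was higher in mouse GS medium by 3.003 on the log2 scale against chick GS medium (adjusted p = 4.02e-24, edgeR) and by 3.734 against chick DRG medium (adjusted p = 3.2e-26). COL16A1 was higher in mouse GS than in chick DRG medium by 2.048 (adjusted p = 1.54e-13). COL6A3 was lower in mouse GS medium, with log2 differences of -1.676 from chick GS medium (adjusted p = 2.1e-07) and -1.954 from chick DRG medium (adjusted p = 2.9e-09). AGRN was lower there too, with -1.321 (adjusted p = 6.18e-13) and -1.427 (adjusted p = 3.07e-14). In each of these 7 comparisons the 2 libraries of one medium lay on the same side of both libraries of the other. Groups of 2 libraries are too small for a search for single libraries that stand apart.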

How the results depend on the processing

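Over 146 gene comparisons and 2432 alternatives, 2323 stayed on their side of the threshold, 91 lost the call and 18 gained it. Of the called values 0 changed sign, while some that were not called crossed zero, such as COL3A1 in chick GS medium (-1.61 to 0.25). Without the fold criterion 12 genes were higher in chick GS medium (6 with it), 18 in chick DRG medium (10 with it) and 14 were called between the chick media (5 with it). The share of all tested genes at adjusted p alone was not counted, so these larger counts cannot be judged beside it. At an unadjusted p under 0.05, 6727, 9090 and 6572 of the 16680 tested genes passed in these 3 comparisons (edgeR). DESeq2 gave 1 lower gene in chick GS medium (2 with edgeR). A filter at 10 counts in every library, which tests fewer genes, left 6 higher genes in mouse GS medium (10 without it). Leaving out 1 library at a time gave 6 to 7 higher and 1 to 3 lower genes in chick GS medium, the single one without control replicate 2 or chick GS replicate 1. It gave 9 to 11 and 3 to 5 in chick DRG medium, 8 to 10 and 7 to 9 in mouse GS medium, and 3 to 5 called between the chick media, 3 without chick DRG replicate 1. Between mouse GS and chick GS medium 17 to 21 were called and between mouse GS and chick DRG medium 21 to 26. A library left alone in its group is assumed to vary like the others.

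Libraries with the same replicate number did not deviate together (correlations of -0.0437 to 0.042 across genes). No strong shared deviation was thus seen, but this cannot show whether such libraries were cultured or prepared together. With the replicate number as a block, the call of COL5A2 in mouse GS medium was lost (adjusted p = 0.0514), and the counts were 6 and 2, 10 and 4, and 9 and 9 higher and lower genes in chick GS, chick DRG and mouse GS medium. Between mouse GS and chick DRG medium the block gave 25 calls (24 without it). Genes under about 1 CPM rest on few counts, most of all in the shallower mouse GS libraries.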
